A study of Homo sapiens with 36 samples.

Results

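The metallothioneins are small cysteine-rich proteins that bind zinc and copper. The set described here holds 9 genes of a table of 26468. They are 7 metallothioneins (MT2A, MT1E, MT1X, MT1F, MT1G, MT1M and MT1H), the metal sensor MTF1 and the zinc exporter SLC30A1. The family was chosen by the RPKM of MT2A, which was much higher with JQ1 in the line HCT116. That contrast is therefore given as a description, with no test, and the tests use the other 5 lines.

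RNA was sequenced from 6 human colon cancer cell lines, each exposed for 24 h to 0.5 µM JQ1 or to its solvent DMSO. The compound JQ1 competes with acetylated histones for the bromodomains of BET proteins, which otherwise help to activate transcription. The groups were COLO205, COLO320, HCT116, HCT-15, HT-29 and SW480 with JQ1 and the same 6 lines with DMSO, at 3 libraries a group and 36 in all. All cells were growing in log phase when collected, and the labels name neither engineered alleles nor separate cultures for the replicates, so p-values measure the spread between these libraries, which may be technical. Each line is a single tumour-derived culture and the values are averages over its cells, so fewer expressing cells and less RNA per cell cannot be told apart.

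Metallothioneins buffer zinc and copper inside the cell and also take up cadmium. When free zinc rises, MTF1 binds short metal response elements in their promoters and turns them on, together with SLC30A1, which moves zinc out of the cell. In the intestinal epithelium these genes are known to follow the supply of zinc, and glucocorticoids and oxidative stress are other known inducers of metallothioneins.

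Promoter sequences of the RefSeq assembly GRCh38.p14 are shown first because the metal response element is the feature that ties these genes to MTF1. The table held an entry for 5 of the 9 members, MT2A, MT1X, MT1H, MTF1 and SLC30A1, and had none for the other 4. Each sequence below is the 250 bases before the annotated start, 5′ to 3′ on the gene's strand. Capitals mark every match to the response element core, TGCACNC or TGCGCNC, on either strand. MT2A lies at chr16:56608334-56608583 on the plus strand, MT1X at chr16:56682220-56682469 on the plus strand, MT1H at chr16:56669564-56669813 on the plus strand and SLC30A1 at chr1:211579162-211579411 on the minus strand.
MT2A: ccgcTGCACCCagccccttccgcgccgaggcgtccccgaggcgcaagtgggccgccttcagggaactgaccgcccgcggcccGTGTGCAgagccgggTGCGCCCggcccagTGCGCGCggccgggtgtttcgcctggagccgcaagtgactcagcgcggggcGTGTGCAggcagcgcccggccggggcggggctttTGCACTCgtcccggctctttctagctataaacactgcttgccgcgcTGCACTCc
MT1X: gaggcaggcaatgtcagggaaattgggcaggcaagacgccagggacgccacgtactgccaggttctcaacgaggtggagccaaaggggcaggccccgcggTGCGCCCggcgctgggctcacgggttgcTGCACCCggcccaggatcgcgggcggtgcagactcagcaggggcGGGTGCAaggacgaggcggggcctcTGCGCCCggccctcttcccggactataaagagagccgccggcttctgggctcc
MT1H: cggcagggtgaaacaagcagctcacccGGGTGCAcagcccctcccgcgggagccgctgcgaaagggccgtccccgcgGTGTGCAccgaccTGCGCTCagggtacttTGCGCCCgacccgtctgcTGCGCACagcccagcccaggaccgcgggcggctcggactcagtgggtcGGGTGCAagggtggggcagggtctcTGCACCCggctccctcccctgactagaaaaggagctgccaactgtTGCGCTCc
SLC30A1: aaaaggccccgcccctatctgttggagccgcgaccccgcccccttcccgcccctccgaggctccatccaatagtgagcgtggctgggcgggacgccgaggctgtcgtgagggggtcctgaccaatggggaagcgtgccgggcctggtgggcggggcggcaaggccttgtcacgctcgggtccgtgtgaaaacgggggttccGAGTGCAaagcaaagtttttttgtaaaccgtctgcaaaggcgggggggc

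The MT2A window held 7 cores, of which 5 were TGCACNC and 2 TGCGCNC. MT1H held 8 cores, MT1X 4 and SLC30A1 1, and the MTF1 window held 0. Of 27305 promoters of the same length, 24.7% held at least 1 core, 0.366% at least 4 and 0.121% at least 5. A TATAAA box stood once in the MT2A and once in the MT1X window, and none in those of MT1H, MTF1 and SLC30A1. Of all promoters, 7.17% held the box. These are letter matches in a fixed window, and binding was not measured.

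Values are RPKM as the authors deposited them, reads scaled by gene length and a divisor for each library. The divisor followed a size factor, the median ratio of a library's reads to the gene means over libraries. It was not the total of reads in genes. In HCT-15 it was 27.0 M for 23.7 M reads (DMSO replicate 1) and 33.3 M for 31.7 M reads (JQ1 replicate 1). Changes are differences of log2(RPKM + 0.5), JQ1 minus DMSO, with the standard error of the model, and the added constant makes changes of weakly expressed genes look smaller. Tests are from a limma fit over all 36 libraries and 15542 genes, two-sided, with Benjamini-Hochberg adjustment over those genes, and adjusted p under 0.05 counts as called. Depth ran between 18.8 and 53.1 M reads in genes (median 24.5 M). JQ1 moved most of the transcriptome, since 68.2% to 74% of tested genes were called in each of the 5 lines. The known JQ1 readout HEXIM1 rose in all 5 of these lines and MYC fell in all 5. Epithelial markers (EPCAM, KRT8, KRT18, KRT19 and CDH1) summed to 1322 RPKM or more in every library of 5 lines but to 48.3 to 59.5 RPKM in COLO320, where CDH1 averaged 0.00736 RPKM and KRT19 0.0400 RPKM with DMSO. Of the 6 colon markers, CDX2 averaged 1099 RPKM in COLO320 with DMSO. The others were low in that group, with CDH17 at 2.68, GPA33 at 0.265, LGALS4 at 0.0366, VIL1 at 0.0300 and CDX1 at 0 RPKM. All 6 together summed to 8.52 to 17.7 RPKM in HCT116 and SW480 libraries.

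**Figure D1:**
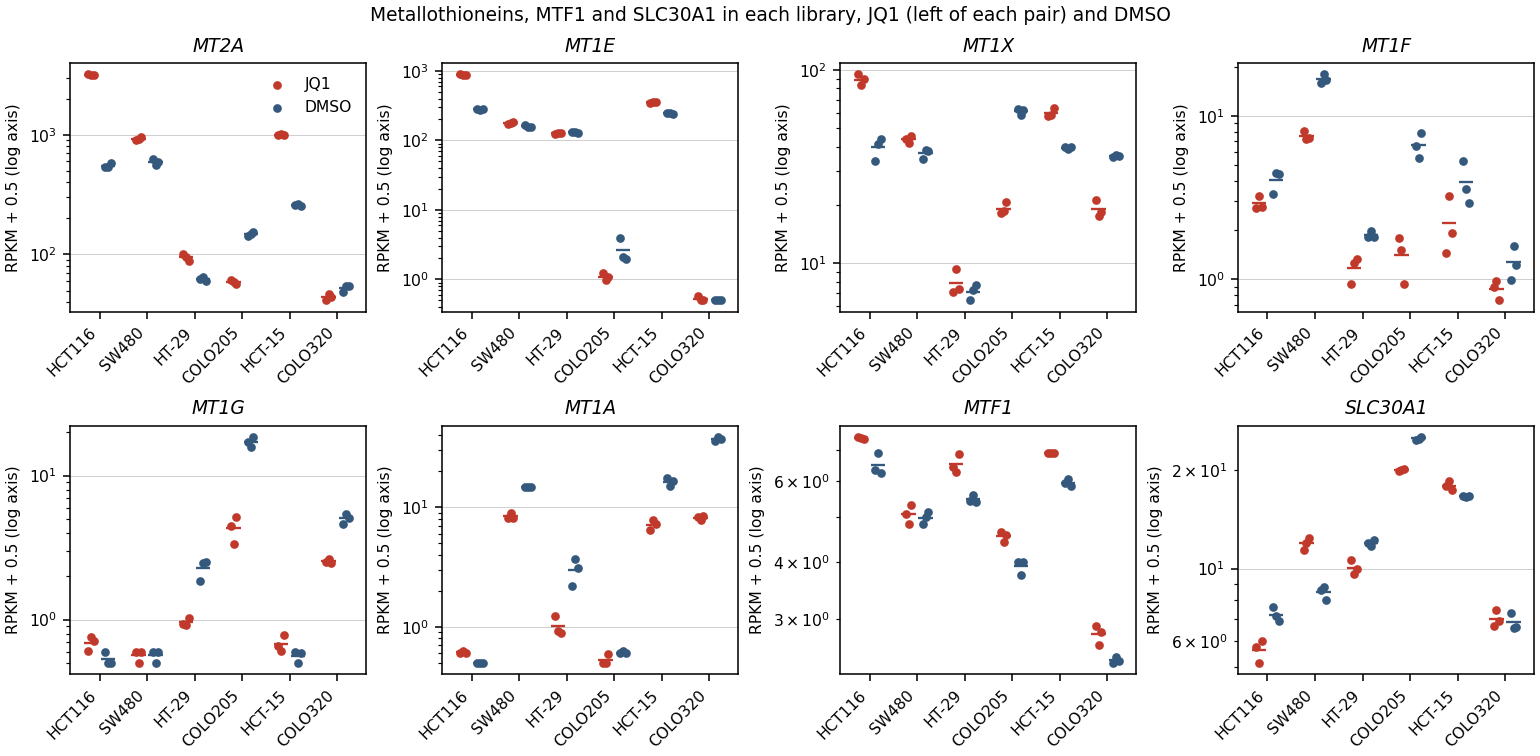
Level of MT2A, MT1E, MT1X, MT1F, MT1G, MTF1, SLC30A1 and the further metallothionein MT1A in every library (points, with a line at the mean of 3), as RPKM + 0.5 on a log axis, by cell line, with JQ1 left of DMSO in each pair. MT2A reached 3125 to 3183 RPKM in HCT116 with JQ1, and MT1E was near 0 in COLO320.

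MT2A, the most widely expressed metallothionein of human cells, was higher with JQ1 in 4 lines and lower in 2. In HCT116 it stood at 3183, 3125 and 3157 RPKM with JQ1, against 536, 540 and 577 RPKM with DMSO. All 3 JQ1 libraries lay far above the DMSO libraries, at a log2 difference of 2.52 ± 0.049 (SE). For scale, JQ1 and DMSO ranges were separate for 69.1% of all tested genes in HCT116, 73.8% in SW480, 75% in HT-29, 74% in COLO205, 73.2% in HCT-15 and 71.6% in COLO320. With JQ1, MT2A ranked 4 to 6 among all genes of an HCT116 library by RPKM, against 69 to 74 with DMSO.

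In HCT-15, which was not used to pick the family, MT2A stood at 989, 1007 and 987 RPKM with JQ1, against 256, 264 and 252 RPKM with DMSO. The ranges did not overlap, and MT2A rose 3.86-fold (log2 change 1.95 ± 0.049, adjusted p = 2.13e-23, limma). Its rank there was 33 to 36 with JQ1 and 140 to 151 with DMSO. SW480 libraries held 908, 926 and 949 RPKM with JQ1, against 623, 557 and 592 RPKM with DMSO. The rise was smaller than in HCT-15 but again without overlap, 1.57-fold (log2 change 0.65 ± 0.049, adjusted p = 1.31e-12, limma). HT-29 had a much lower level than SW480, with 100.2, 94.9 and 87.0 RPKM under JQ1, against 62.0, 64.0 and 59.0 RPKM under DMSO. Every JQ1 library exceeded every DMSO library, and the rise was 1.52-fold (log2 change 0.60 ± 0.049, adjusted p = 6.24e-12, limma).

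The other 2 lines moved the opposite way. COLO205 held 60.1, 57.9 and 55.7 RPKM of MT2A with JQ1, against 142, 147 and 153 RPKM with DMSO. The JQ1 libraries were all lower, and MT2A fell by 1.34 on the log2 scale (SE 0.049, adjusted p = 7.40e-20, limma), a 2.53-fold change. In COLO320 MT2A stood at 40.9, 46.0 and 43.3 RPKM with JQ1, against 47.9, 53.8 and 53.7 RPKM with DMSO. The highest JQ1 library lay just under the lowest DMSO library, and the log2 change was −0.25 ± 0.049 (adjusted p = 5.31e-05, limma). The change of MT2A differed between the 5 lines (F test adjusted p = 5.12e-24, limma), where 91.7% of all tested genes also differed.

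MT1X, a close relative of MT2A, had the same sign of change as MT2A in every line. In HCT116 it held 94.0, 82.4 and 88.7 RPKM with JQ1, against 33.2, 40.9 and 43.5 RPKM with DMSO. All JQ1 values were above all DMSO values, with a log2 difference of 1.17 ± 0.090. HCT-15 had 57.3, 58.1 and 62.7 RPKM with JQ1, against 39.5, 38.3 and 39.3 RPKM with DMSO. The groups stood apart, and MT1X rose there (log2 change 0.60 ± 0.090, adjusted p = 8.74e-07, limma).

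In SW480 MT1X stood at 43.2, 41.4 and 44.9 RPKM with JQ1, against 33.9, 37.9 and 37.4 RPKM with DMSO. The ranges were separate but close, and MT1X rose by 0.25 ± 0.090 on the log2 scale (adjusted p = 0.0154, limma). That call was lost without SW480 DMSO replicate 1 (adjusted p = 0.0816) or SW480 JQ1 replicate 3 (adjusted p = 0.0567). HT-29 held little MT1X, 6.61, 8.80 and 6.87 RPKM with JQ1, against 5.91, 6.76 and 7.18 RPKM with DMSO. The values overlapped and the change of 0.15 ± 0.090 did not pass (adjusted p = 0.138, limma).

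MT1X fell most in COLO205, with 17.7, 18.02 and 20.2 RPKM under JQ1, against 62.5, 58.0 and 61.2 RPKM under DMSO. Every JQ1 library was far lower, a change of −1.67 ± 0.090 (adjusted p = 4.55e-16, limma). COLO320 had 20.6, 17.0 and 17.96 RPKM with JQ1, against 35.0, 35.7 and 35.4 RPKM with DMSO. No values overlapped, and MT1X fell by 0.92 on the log2 scale (SE 0.090, adjusted p = 3.38e-10, limma). MT2A in the same COLO320 libraries fell by 0.25.

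MT1E, another zinc-binding isoform, was abundant in 4 lines and nearly missing in COLO205 and COLO320. In HCT116 its libraries held 887, 871 and 875 RPKM with JQ1, against 279, 274 and 280 RPKM with DMSO. The groups lay far apart, at a log2 difference of 1.66 ± 0.13. In HCT-15 MT1E stood at 348, 356 and 350 RPKM with JQ1, against 250.04, 251 and 238 RPKM with DMSO. All JQ1 libraries were higher, and MT1E rose 1.43-fold (log2 change 0.51 ± 0.13, adjusted p = 0.00114, limma). The call in HCT-15 was lost under quantile scaling (log2 change 0.31, adjusted p = 0.0627).

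SW480 had 173, 176 and 182 RPKM of MT1E with JQ1, against 168, 155 and 154 RPKM with DMSO. The ranges did not overlap, but the change of 0.16 ± 0.13 did not pass (adjusted p = 0.296, limma). It passed with each line fitted alone (adjusted p = 0.0134), with limma voom on recovered reads (adjusted p = 1.89e-05) and without COLO205 DMSO replicate 1 (adjusted p = 0.00720), which stood apart from its own group. HT-29 held 124, 126 and 129 RPKM with JQ1, against 132, 132 and 125 RPKM with DMSO. The groups overlapped and the log2 change was −0.04 ± 0.13 (adjusted p = 0.831, limma).

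COLO205 held 0.716, 0.480 and 0.599 RPKM of MT1E with JQ1, from 23 reads in all, against 3.39, 1.57 and 1.43 RPKM with DMSO, from 76 reads. All JQ1 values were lower and 1 DMSO library stood above the rest, and MT1E fell by 1.19 on the log2 scale (SE 0.13, adjusted p = 4.45e-09, limma). In COLO320, 1 read was found over the 3 JQ1 libraries and 0 over the 3 DMSO libraries, which allows up to 0.0697 RPKM over that DMSO group at 3 reads.

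MT1F had a lower mean with JQ1 in all 6 lines. HCT116 held 2.24, 2.72 and 2.29 RPKM with JQ1, against 2.84, 3.96 and 3.90 RPKM with DMSO. The JQ1 values were all lower, with a log2 difference of −0.47 ± 0.24, while MT2A, MT1X and MT1E in those libraries were higher with JQ1. In SW480, the line with the most MT1F, libraries held 7.57, 6.76 and 6.87 RPKM with JQ1, against 15.5, 17.5 and 16.2 RPKM with DMSO. The groups were far apart and MT1F fell by 1.16 on the log2 scale (SE 0.24, adjusted p = 9.44e-05, limma).

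MT1F fell most in COLO205, with 1.28, 1.01 and 0.429 RPKM under JQ1, against 6.03, 5.05 and 7.40 RPKM under DMSO. All JQ1 libraries were well below all DMSO libraries, at a log2 change of −2.28 ± 0.24 (adjusted p = 1.38e-09, limma). In HT-29 it had 0.432, 0.750 and 0.832 RPKM with JQ1, against 1.30, 1.48 and 1.32 RPKM with DMSO. The ranges were apart and MT1F fell by 0.69 (SE 0.24, adjusted p = 0.0119, limma), a call lost without HT-29 JQ1 replicate 1 (adjusted p = 0.0759).

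In HCT-15 MT1F held 0.953, 2.72 and 1.43 RPKM with JQ1, against 4.78, 3.05 and 2.43 RPKM with DMSO. The groups overlapped, since 1 JQ1 library exceeded the lowest DMSO library, and MT1F fell by 0.87 (SE 0.24, adjusted p = 0.00206, limma). With each line fitted alone this did not pass (adjusted p = 0.0861). COLO320 had 0.395, 0.480 and 0.243 RPKM with JQ1, against 0.486, 1.11 and 0.717 RPKM with DMSO, from 13 and 29 reads. The change of −0.52 ± 0.24 did not pass (adjusted p = 0.0569, limma) and passed at a constant of 0.1 (adjusted p = 0.0212).

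MT1G was best seen in COLO205, where libraries held 3.96, 2.86 and 4.69 RPKM with JQ1, against 16.7, 15.4 and 18.02 RPKM with DMSO. No JQ1 library came near a DMSO library, and MT1G fell by 2.01 on the log2 scale (SE 0.13, adjusted p = 6.06e-14, limma). COLO320 had 2.02, 2.14 and 1.99 RPKM with JQ1, against 4.15, 4.93 and 4.61 RPKM with DMSO. Without overlap, it fell by 0.99 (SE 0.13, adjusted p = 1.53e-07, limma). In HT-29 MT1G held 0.433, 0.418 and 0.529 RPKM with JQ1, against 1.34, 1.96 and 2.03 RPKM with DMSO, a fall by 1.23 (SE 0.13, adjusted p = 1.95e-09, limma).

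HCT116, SW480 and HCT-15 held almost no MT1G. Over 3 libraries a group, HCT116 had 5 reads with JQ1 and 1 read with DMSO, SW480 had 2 and 2, and HCT-15 had 6 and 2. The change in HCT-15, 0.28 ± 0.13, did not pass (adjusted p = 0.0645, limma).

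MT1M passed the filter on low values, 1 RPKM in 3 libraries, only through HCT-15 and there through its 3 DMSO libraries and 1 JQ1 library. That choice favours both a fall with JQ1 and a difference between lines, so no test of MT1M is given. It is not counted below, except in the closing section on processing. HCT-15 held 0.887, 0.780 and 1.09 RPKM with JQ1, against 2.10, 2.17 and 1.45 RPKM with DMSO. Values with JQ1 were lower without overlap, at a log2 difference of −0.75 ± 0.094. In the other 5 lines no group had more than 5 MT1M reads. MT1H did not pass the filter and was not tested. Its highest group was HCT116 with JQ1, at 10 reads, against 1 read with DMSO, and COLO205 had 1 read with JQ1 and 8 reads with DMSO.

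**Figure D2:**
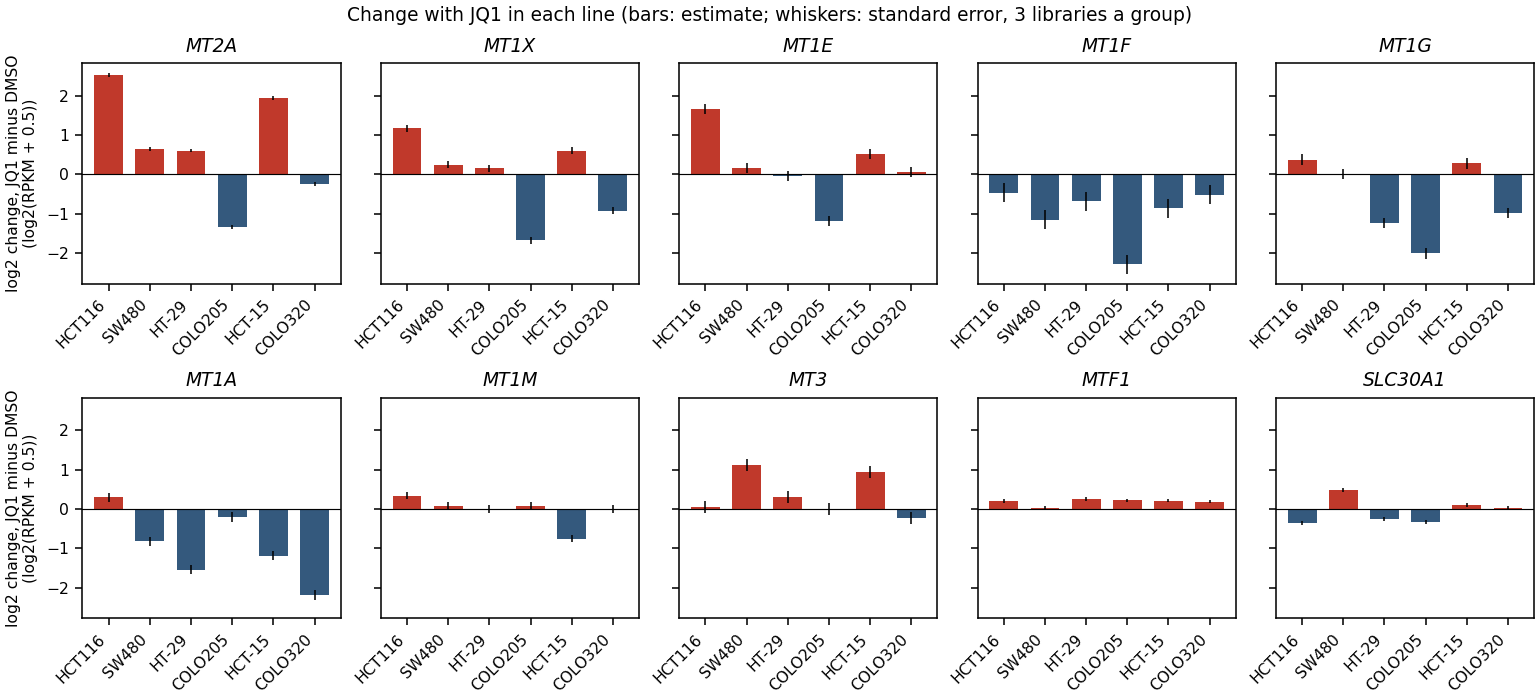
Log2 change of the 8 tested members and of MT1A and MT3, JQ1 minus DMSO on log2(RPKM + 0.5), by cell line, with positive bars in red and negative bars in blue. Bars are estimates and whiskers standard errors. The bars of MT2A and MT1X are positive in HCT116, SW480, HT-29 and HCT-15 and negative in COLO205 and COLO320, and those of MT1F are negative in every line.

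The table also held 8 further metallothionein genes, of which MT1A, MT1B, MT1JP and MT3 passed the filter. MT1A in COLO320 stood at 7.73, 7.27 and 7.94 RPKM with JQ1, against 35.4, 37.8 and 36.5 RPKM with DMSO. The groups lay far apart, and MT1A fell by 2.19 on the log2 scale (SE 0.12, adjusted p = 1.36e-15, limma). It also fell in SW480 (log2 change −0.82), HT-29 (−1.54) and HCT-15 (−1.19), and not by the test in COLO205 (−0.20, adjusted p = 0.133). MT1B was seen mainly in HCT116, with 6.60, 6.83 and 5.53 RPKM under JQ1, against 1.496, 1.93 and 1.79 RPKM under DMSO, a log2 difference of 1.61 ± 0.099. MT1B reached 1 RPKM only in HCT116 libraries, so no test of it is given. In SW480 it had 5 reads with JQ1 and 2 reads with DMSO, and the ranges overlapped.

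MT3, known as the brain-enriched metallothionein, was low throughout. In SW480 it held 1.82, 1.46 and 1.94 RPKM with JQ1, against 0.515, 0.607 and 0.464 RPKM with DMSO. All JQ1 libraries were higher, and MT3 rose there (log2 change 1.12 ± 0.16, adjusted p = 2.83e-07, limma). Among SW480 libraries only those with JQ1 reached 1 RPKM. The filter was met without them by COLO320 with DMSO, at 1.53, 1.32 and 1.21 RPKM. MT3 also rose in HCT-15 (0.94 ± 0.16, adjusted p = 5.02e-06, limma), from 36 reads with JQ1 and 7 reads with DMSO. The pseudogene MT1JP passed the filter only through DMSO libraries of HCT-15 and COLO320, which favours a fall in those lines, so it is given without a test. It averaged 0.504 RPKM with JQ1 and 1.21 RPKM with DMSO in HCT-15, and 0.184 RPKM with JQ1 and 1.21 RPKM with DMSO in COLO320.

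Summed over the 15 metallothionein genes, RPKM in HCT116 libraries was 4175, 4091 and 4130 with JQ1, against 853, 862 and 906 with DMSO. HCT-15 summed to 1404, 1433 and 1411 RPKM with JQ1, against 572, 574 and 550.1 RPKM with DMSO. SW480 summed to 1166 ± 25.7 RPKM with JQ1 and 817 ± 36.5 RPKM with DMSO (SD, n = 3 each). In HT-29 the sums were close, 230.4 ± 3.91 RPKM with JQ1 and 204 ± 6.08 RPKM with DMSO.

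The order reversed in COLO205, which summed to 82.1 ± 1.79 RPKM with JQ1 and 234 ± 7.17 RPKM with DMSO, and in COLO320, at 73.3 ± 0.590 RPKM with JQ1 and 132 ± 5.07 RPKM with DMSO (SD, n = 3 each). On the log2 scale the sum changed by 2.24 in HCT116, 1.33 in HCT-15, 0.51 in SW480, 0.17 in HT-29, −1.51 in COLO205 and −0.85 in COLO320. No test was made on this sum.

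**Figure D3:**
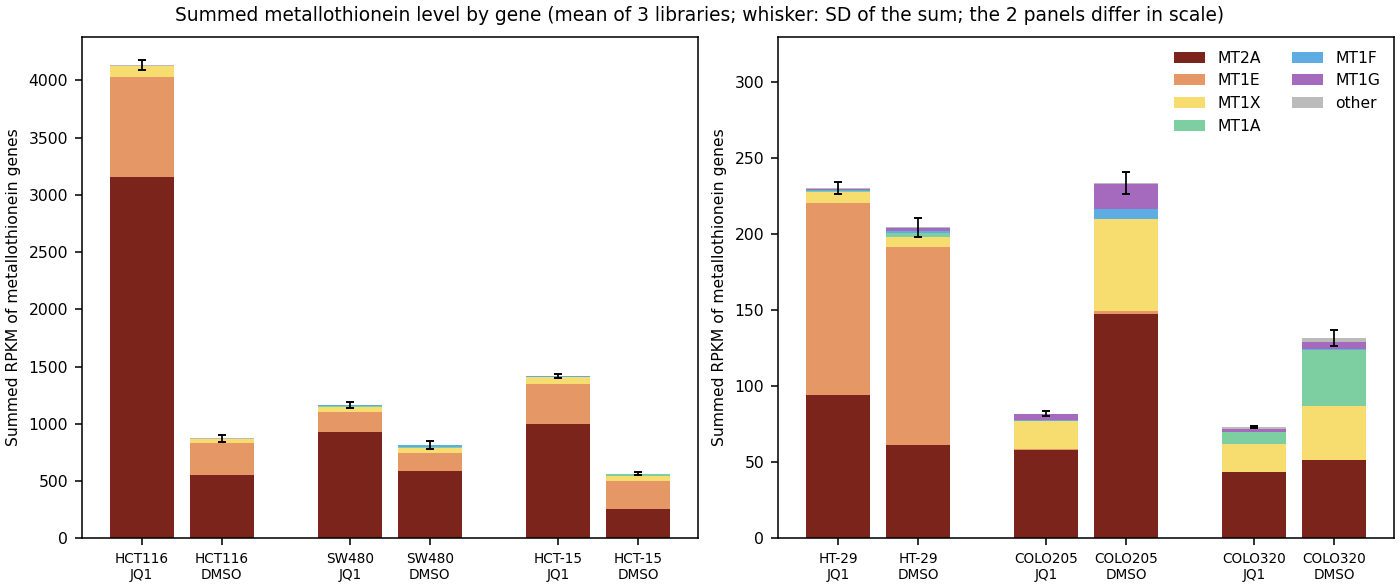
Summed RPKM of the metallothionein genes, split by gene, as the mean of 3 libraries with the SD of the sum, by cell line, with JQ1 left of DMSO and panels on different scales. HCT116 with JQ1 reached 4132 RPKM, and COLO205 and COLO320 were lower with JQ1.

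MT2A took a larger share of the summed metallothionein level with JQ1 in all 6 lines, whether its own level was higher or lower. The share was 76.4% ± 0.0994 with JQ1 and 63.0% ± 0.518 with DMSO in HCT116, and 70.2% ± 0.255 with JQ1 and 45.5% ± 0.600 with DMSO in HCT-15 (SD, n = 3 each). In COLO205, where MT2A fell, it was 70.6% ± 2.13 with JQ1 and 63.1% ± 1.57 with DMSO. COLO320 had 59.3% ± 3.11 with JQ1 and 39.3% ± 1.14 with DMSO, SW480 79.6% ± 0.140 with JQ1 and 72.2% ± 0.924 with DMSO, and HT-29 40.8% ± 2.26 with JQ1 and 30.2% ± 0.341 with DMSO. In no line did the shares of JQ1 and DMSO libraries overlap. MT2A was the gene picked for its change in HCT116, so the share there is a description of that choice.

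**Figure D4:**
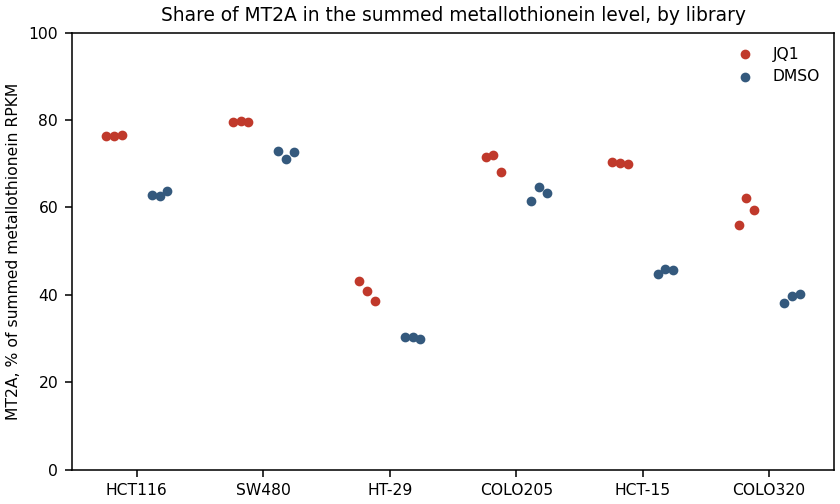
MT2A as a percent of the summed metallothionein RPKM in each library, by cell line, with JQ1 left of DMSO. Every JQ1 library lies above every DMSO library of its line, from 38.5% to 43.1% against 29.8% to 30.4% in HT-29 up to 79.5% to 79.7% against 71.2% to 72.8% in SW480.

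MTF1, the zinc-sensing transcription factor of the family, changed little. In HT-29 it held 5.94, 5.78 and 6.39 RPKM with JQ1, against 4.93, 5.09 and 4.91 RPKM with DMSO. The libraries did not overlap, and MTF1 rose 1.19-fold (log2 change 0.25 ± 0.042, adjusted p = 4.07e-06, limma). COLO205 libraries had 4.15, 3.92 and 4.08 RPKM with JQ1, against 3.50, 3.24 and 3.50 RPKM with DMSO. Again all JQ1 values were higher (log2 change 0.22 ± 0.042, adjusted p = 3.94e-05, limma), although MT2A, MT1X, MT1F and MT1G fell in the same line.

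MTF1 also rose in HCT-15 (0.21 ± 0.042, adjusted p = 5.88e-05) and COLO320 (0.19 ± 0.042, adjusted p = 0.000255). HCT-15 held 6.40, 6.39 and 6.40 RPKM with JQ1, against 5.44, 5.57 and 5.35 RPKM with DMSO, and COLO320 held 2.40, 2.14 and 2.31 RPKM with JQ1, against 1.91, 1.98 and 1.93 RPKM with DMSO. Both lines kept their groups apart. In SW480, with 4.60, 4.34 and 4.81 RPKM under JQ1, against 4.34, 4.50 and 4.63 RPKM under DMSO, the values overlapped and MTF1 did not pass (log2 change 0.02 ± 0.042, adjusted p = 0.620, limma). HCT116 had 6.98, 6.95 and 6.93 RPKM with JQ1, against 5.83, 6.39 and 5.75 RPKM with DMSO, a log2 difference of 0.20 ± 0.042.

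SLC30A1, the exporter that lowers cytosolic zinc, had the same sign of change as MT2A in SW480, COLO205 and HCT-15, and the other sign in HCT116, HT-29 and COLO320. In HCT116 it held 5.25, 4.65 and 5.52 RPKM with JQ1, against 7.12, 6.69 and 6.40 RPKM with DMSO. The JQ1 libraries were all lower, at a log2 difference of −0.36 ± 0.051, where MT2A was higher. SW480 had 10.9, 11.5 and 11.9 RPKM with JQ1, against 8.13, 8.29 and 7.54 RPKM with DMSO. The groups did not overlap, and SLC30A1 rose 1.41-fold (log2 change 0.49 ± 0.051, adjusted p = 1.01e-09, limma).

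It fell in COLO205, with libraries at 19.3, 19.6 and 19.6 RPKM with JQ1, against 24.3, 24.5 and 24.7 RPKM with DMSO (log2 change −0.32 ± 0.051, adjusted p = 2.26e-06, limma). HT-29 libraries held 10.1, 9.14 and 9.45 RPKM with JQ1, against 11.5, 11.2 and 11.7 RPKM with DMSO, and SLC30A1 fell there too (−0.25 ± 0.051, adjusted p = 7.44e-05, limma). In both lines every JQ1 library was under every DMSO library. In HCT-15, where MT2A rose 3.86-fold, SLC30A1 stood at 17.4, 18.02 and 16.8 RPKM with JQ1, against 16.2, 16.03 and 16.2 RPKM with DMSO. The JQ1 libraries were slightly higher without overlap, and the change of 0.11 ± 0.051 did not pass (adjusted p = 0.0659, limma) but passed with limma voom (adjusted p = 0.0130) and with each line fitted alone (adjusted p = 0.0147). COLO320 libraries ran from 6.16 to 6.96 RPKM with JQ1 and from 6.10 to 6.80 RPKM with DMSO, and the change was 0.03 ± 0.051 (adjusted p = 0.588, limma).

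Counted by line and without MT1M, 3 of the other 7 tested members rose and 1 fell in SW480, where 33.9% of all tested genes rose and 40.1% fell. HT-29 had 2 that rose and 3 that fell, against 36.6% and 37.3% of all genes. In COLO205 1 rose and 6 fell, against 34.2% and 38.6%. In HCT-15, 4 rose and 1 fell, against 34.8% and 35.4%, and in COLO320, 1 rose and 3 fell, against 31% and 37.2%. Taken over the 5 lines that makes 25 calls in 35 tests, 11 higher and 14 lower. Of all tested genes, 68.2% to 74% were called in each line in either direction, so the total is not particular to the members. The 1 called fall in HCT-15 is that of MT1F, which did not pass with that line fitted alone. The median log2 change of the 7 members was 0.16 in SW480, −0.04 in HT-29, −1.34 in COLO205, 0.28 in HCT-15 and −0.25 in COLO320. Over all tested genes the medians of these lines lay between −0.02 and 0.00.

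In the mean of the 5 lines 2 of the 7 members rose and 3 fell, where 39.8% of all tested genes rose and 47.8% fell, 87.6% in all. MT2A (0.32, adjusted p = 6.14e-14) and MTF1 (0.18, adjusted p = 7.83e-10) rose, and MT1F (−1.10, adjusted p = 1.60e-10), MT1G (−0.79, adjusted p = 5.36e-13) and MT1X (−0.32, adjusted p = 2.17e-08) fell. These p-values rest on the spread between libraries of a line. When the 5 within-line differences were the units instead, MT1F alone passed among the members, where 5118 of 15542 tested genes passed. For MT2A limma then gave an adjusted p = 0.572. The change differed between the 5 lines for 7 of 7 members, against 91.7% of all genes.

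At baseline, in DMSO, the 7 tested members other than MT1M all differed between the 5 lines, as did 98.3% of tested genes. Between single pairs of lines, the share of all tested genes that differed in DMSO was 83.3% for SW480 and HCT-15, 83.8% for COLO205 and HCT-15, 80.8% for HT-29 and COLO205, 86.8% for HT-29 and COLO320 and 87.1% for SW480 and COLO320. It was 84% for HCT-15 and COLO320, 81.5% for HT-29 and HCT-15, 86.1% for SW480 and COLO205, 85.4% for SW480 and HT-29 and 87.1% for COLO205 and COLO320. MT2A ran from 590.4 ± 33.0 RPKM in SW480 through 551 ± 22.5 in HCT116, 257 ± 6.20 in HCT-15, 147 ± 5.38 in COLO205 and 61.7 ± 2.501 in HT-29 to 51.8 ± 3.35 RPKM in COLO320 (SD, n = 3 each). All 4 steps between neighbours among the 5 lines passed, the smallest being HT-29 over COLO320 (log2 difference 0.25, adjusted p = 3.23e-05, limma).

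MT1X had another order, with COLO205 highest at 60.5 ± 2.32 RPKM and HT-29 lowest at 6.62 ± 0.647 RPKM. In between, HCT116, HCT-15, SW480 and COLO320 lay between 35.4 and 39.2 RPKM. The steps of HCT-15 over SW480 (log2 difference 0.10, adjusted p = 0.294) and of SW480 over COLO320 (0.04, adjusted p = 0.691, limma) did not pass. MT1E fell into 2 sets, 130 to 278 RPKM in HCT116, HCT-15, SW480 and HT-29, and 2.13 ± 1.10 RPKM in COLO205 with 0 reads in COLO320.

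MT1G ran almost the other way, with 16.7 ± 1.32 RPKM in COLO205, 4.57 ± 0.394 in COLO320, 1.78 ± 0.378 in HT-29 and 0.0319 to 0.0640 RPKM in the other 3 lines, of which SW480 and HCT-15 did not differ by the test (adjusted p = 0.948, limma). MT1F was highest in SW480, at 16.4 ± 1.01 RPKM, and lowest in COLO320, at 0.770 ± 0.314 RPKM. MT1A was highest in COLO320, at 36.6 ± 1.22 RPKM, where MT1X stood at 35.4 ± 0.324 RPKM. SLC30A1 was highest in COLO205, at 24.5 ± 0.224 RPKM, and MTF1 highest in HCT116, at 5.99 ± 0.352 RPKM, and lowest in COLO320, at 1.94 ± 0.0378 RPKM.

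Among the other zinc exporters of the SLC30 family, 4 of 7 tested rose and 2 fell in the mean of the 5 lines, where 39.8% of all tested genes rose and 47.8% fell. SLC30A4, a vesicular zinc transporter, rose by 0.67 ± 0.029 and SLC30A9, a mitochondrial zinc exporter, by 0.57 ± 0.014 on the log2 scale, and both rose in each of the 5 lines. SLC30A3 rose by 0.23 on average, but among the 5 lines it was called higher only in SW480 (1.33, adjusted p = 6.83e-19, limma). In HCT-15 it was called lower (−0.15, adjusted p = 0.0156, limma). SLC30A5 rose by 0.11 on average. Of the zinc importers of the SLC39 family, 2 of 12 tested rose and 9 fell, against the same 39.8% and 47.8% of all genes. SLC39A8, which brings zinc and cadmium into cells, fell by 1.16 ± 0.023 on average and fell in each of the 5 lines. Its log2 change was −2.44 in COLO205, −1.57 in HT-29, −1.08 in SW480, −0.40 in HCT-15 and −0.28 in COLO320.

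SLC39A10, a plasma membrane zinc importer, fell by 0.38 ± 0.025 and was called lower in all 5 lines. SLC39A6 fell by 0.46 on average and was called in 4 of the 5, and SLC39A5 fell by 0.73, with changes of −1.94 in COLO205 and −1.54 in HT-29 and none past the threshold in the other 3. In COLO205, where MT2A fell, 3 importers rose and 8 fell, against 34.2% and 38.6% of all tested genes. In HCT-15, where MT2A rose, 3 rose and 7 fell, against 34.8% and 35.4%. Median changes of the importers were −0.32 in COLO205 and −0.14 in HCT-15, against −0.01 and 0.00 over all genes.

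**Figure D5:**
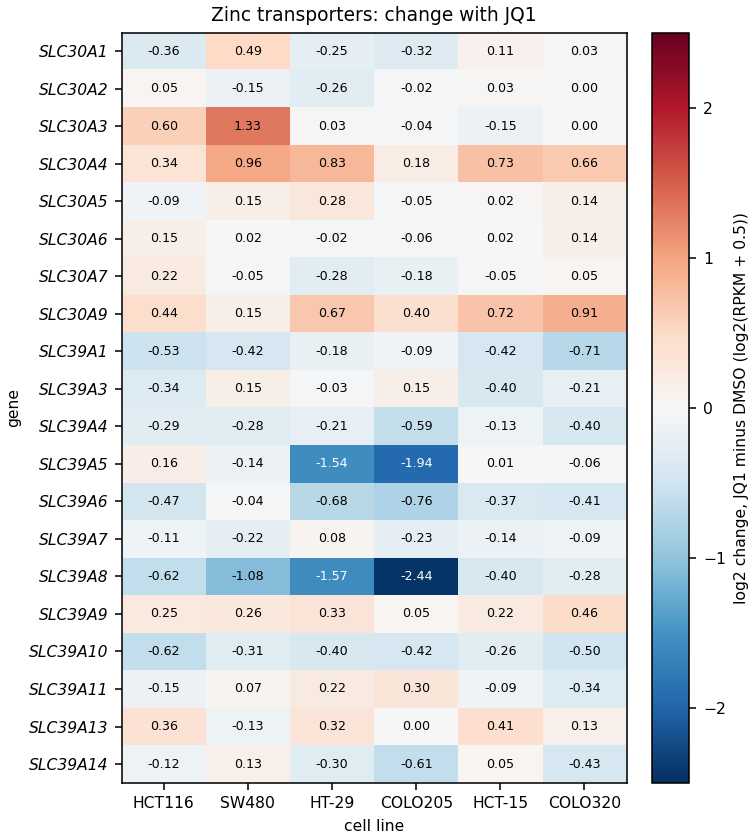
Log2 change of the zinc exporters (SLC30) and importers (SLC39), JQ1 minus DMSO on log2(RPKM + 0.5), by gene and cell line, as a colour scale with the value in each cell. SLC39A8 is negative in every line, from −2.44 in COLO205 to −0.28 in COLO320, and SLC30A4 and SLC30A9 are positive in every line.

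Copper genes were mixed, with 7 of 13 tested higher and 4 lower in the mean of the 5 lines, where 87.6% of all tested genes were called, 39.8% higher and 47.8% lower. CCS, the chaperone that loads copper into SOD1, rose by 0.95 ± 0.028 and was higher in each of the 5 lines, while SCO1, which supplies copper to cytochrome oxidase, fell by 0.44 ± 0.014. Ceruloplasmin (CP) rose by 0.26 and the copper pump ATP7A by 0.25. Of 5 other genes known as MTF1 targets, 4 rose and 1 fell. NDRG1, a stress-responsive gene, rose by 0.98 ± 0.018 and GCLC, which makes the glutathione precursor, by 0.69 ± 0.011, both in all 5 lines. PGF rose by 0.14 on average, and SELENOH was lower at −0.13. By line PGF was called higher in SW480 (1.32) and HT-29 (0.43), lower in COLO205 (−0.74), and not called in HCT-15 and COLO320.

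Genes of other known metallothionein inducers were counted as well, against 39.8% of all tested genes higher and 47.8% lower in the mean of the 5 lines. Of 7 tested genes of the glucocorticoid response, which include the receptor NR3C1 beside its targets, 5 rose and 0 fell in that mean, led by DUSP1 (0.76), PER1 (0.48), SGK1 (0.24) and FKBP5 (0.15). NR3C1 itself averaged only 0.00313 RPKM in HT-29 and 0.0142 RPKM in COLO205 with DMSO. FKBP5 was called higher in SW480 (0.96) and HCT-15 (0.26) and lower in HT-29 (−0.12), COLO205 (−0.19) and COLO320 (−0.14). In the single lines the split was 5 higher and 1 lower in SW480, 3 higher and 1 lower in HT-29, 3 higher and 3 lower in COLO205, 4 higher and 2 lower in HCT-15 and 2 higher and 3 lower in COLO320. The share of all tested genes that was called in a line ran from 31% to 36.6% upward and from 35.4% to 40.1% downward. Of 7 heat shock genes 4 rose and 3 fell in the mean, among them HSPA1B (0.33), HSPH1 (−0.66), HSPB1 (−0.60) and HSPA8 (−0.49).

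The 6 oxidative stress genes were counted line by line. In SW480, 5 rose and 0 fell, in HCT-15 5 rose and 1 fell and in HT-29 4 rose and 1 fell, while in COLO205 1 rose and 5 fell and in COLO320 1 rose and 4 fell. Here too the shares of all tested genes were 31% to 36.6% upward and 35.4% to 40.1% downward. HMOX1, the inducible heme oxygenase, rose by 1.59 ± 0.058 in SW480, 1.25 in HT-29 and 0.43 in HCT-15, and changed by −1.19 in COLO205 and −0.99 in COLO320. NQO1 rose by 1.38 in SW480, 1.64 in HT-29, 1.35 in COLO205 and 2.03 in HCT-15, and fell by 0.36 in COLO320. SLC7A11, the cystine importer, rose by 0.86 in SW480 and fell in the other 4, with changes of −1.98 in HT-29 and −1.89 in COLO205. In HCT116, where MT2A was highest with JQ1, HMOX1 differed by −0.10, NQO1 by 0.88 and SLC7A11 by −1.39. The rest of the list was higher with JQ1 there, SRXN1 by 0.49, TXNRD1 by 0.30 and GCLM by 0.31. Whether these genes and the metallothioneins share a cause was not tested.

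Over the 36 libraries the genes most like MT2A in log2(RPKM + 0.5), by Pearson's r, were CCDC110 (0.958), FBXO2 (0.946), CDC20 (0.930), CHPF (0.928) and Entrez gene 100289130 (0.926). Among the members r with MT2A was 0.771 for MT1E, 0.707 for MT1X, 0.670 for MTF1, 0.576 for MT1F, −0.166 for SLC30A1 and −0.661 for MT1G. The genes most like MT1X were ACOT7 (0.924), GINS4 (0.919), Entrez genes 100653350 and 100652832 (0.894 each, with identical values) and FSCN1 (0.893). The points share 6 lines of 6 libraries each, so these values mostly describe the lines.

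Neighbours of the metallothionein cluster on chromosome 16 also changed with JQ1, as did most tested genes. Of the 10 nearest tested, 4 rose and 5 fell in SW480, 3 and 5 in HT-29 and 3 and 7 in COLO205. In HCT-15 4 rose and 6 fell, and in COLO320 2 rose and 7 fell. Of all tested genes, 31% to 36.6% rose and 35.4% to 40.1% fell in a line. An effect of the region was not tested. Tested genes near it, by RefSeq order, include BBS2, OGFOD1, NUDT21 and LPCAT2 beyond MT4, and NUP93, HERPUD1, NLRC5, CPNE2 and PSME3IP1 beyond MT1X. BBS2, a subunit of the ciliary BBSome, rose in each of the 5 lines, from 0.78 in SW480 to 1.84 in COLO205. NUDT21, NUP93 and PSME3IP1 fell in each of the 5 lines. HERPUD1, a gene of the endoplasmic reticulum stress response, changed by −1.71 in COLO205 and −0.30 in COLO320 and rose in SW480, HT-29 and HCT-15, by 0.24, 0.10 and 0.17.

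Some stretches of the metallothionein transcripts are identical between genes. Of all 50-base windows of their GENCODE transcripts, 1.58% of MT2A, 3.37% of MT1X, 7.10% of MT1E, 1.22% of MT1F, 16.4% of MT1G, 9.87% of MT1M and 7.48% of MT1H also stood in another metallothionein. The sources used here do not say how the authors counted reads that fit several copies, nor whether libraries kept strand.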

How the data were processed

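RNA-seq libraries of 6 lines with JQ1 or DMSO, 36 in 12 groups of 3, were grouped from the labels alone. The authors deposited RPKM per gene. GSNAP, DESeq and limma are listed, without versions, per the submitters' processing notes. The notes name the build NCBIM37, a mouse assembly name, although the gene identifiers are human Entrez numbers, so no coordinates of the files were used. Symbols came from RefSeq GRCh38.p14 for 24519 of 26468 genes. Whole reads were recovered from the RPKM steps for 23499 of 23499 genes above 0, within 1e-05 read, which gave the depth of each library. A listed 0 allows up to 3 reads, counting error only.

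The filter asked for 1 RPKM or more in 3 or more of 36 libraries, and 15542 genes were tested with limma 3.58.1 in R 4.3.3 on log2(RPKM + 0.5), moderated variances and a mean-variance trend, and 24 residual and 2.97 prior degrees of freedom. The fit was tested on simulated data. Tables and figures used Python 3.11.15, numpy 2.4.6, pandas 2.3.3 and matplotlib 3.10.9. The members, lists and tests were chosen with earlier results of these data known. Always named were the members. Other metallothioneins were named where they passed the filter, from each list up to 4 genes with the largest mean change among those called, the 5 genes most like MT2A and MT1X, and the nearest 5 tested neighbours on each side of the cluster, of which not all are reported here. HERPUD1, BBS2 and the marker genes given with values were singled out after their values were seen. Alternatives were constants of 0.1 and 1, no filter, quantile scaling, median centring, total reads as divisor, each line alone, limma voom on recovered reads, a replicate block, the cell line as unit and leaving out each library. Over 36 replicate pairs, chi-square per gene was 1.23 to 3.21, so none was counted as 1 library.

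Marker lists of other cell types were summed per library. Fibroblast markers summed to 0.170 to 3.38 RPKM with JQ1 and 0.246 to 14.6 RPKM with DMSO, the highest being COLO320 with DMSO. Leukocyte markers summed to 2.39 to 1139 RPKM with JQ1 and 1.99 to 1551 RPKM with DMSO. The high values were mainly LYZ in HT-29 and COLO205, and CD68 added 158 RPKM in COLO205 with DMSO. Of 5 endothelial markers 1 passed the filter. Their part in the results was not tested.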

Additional observations from a re-analysis of the deposited data

Results flagged for a closer look

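For 7 of the 7 tested members other than MT1M, and for MT1A and MT3, the JQ1 effect differed between the 5 lines by limma's F test, which also held for 91.7% of all tested genes. MT2A (adjusted p = 5.12e-24) ran from a log2 change of −1.34 in COLO205 to 1.95 in HCT-15, higher in 3 lines and lower in 2. MT1X (adjusted p = 1.63e-15) ran from −1.67 in COLO205 to 0.60 in HCT-15, and MT1E (adjusted p = 3.79e-08) from −1.19 in COLO205 to 0.51 in HCT-15. MT1G (adjusted p = 1.54e-11) ran from −2.01 in COLO205 to 0.28 in HCT-15, where it did not pass. MT1F (adjusted p = 0.000195) had a negative change in 5 of 5 lines, from −2.28 in COLO205 to −0.52 in COLO320. MTF1 (adjusted p = 0.00753) had a positive change in 5 of 5 lines, from 0.02 in SW480 to 0.25 in HT-29. SLC30A1 (adjusted p = 1.46e-10) ran from −0.32 in COLO205 to 0.49 in SW480. MT1A (adjusted p = 2.13e-10) ran from −2.19 in COLO320 to −0.20 in COLO205, and MT3 (adjusted p = 4.13e-06) from −0.23 in COLO320 to 1.12 in SW480. MT3 reached 1 RPKM only in SW480 and COLO320, so a difference between lines was in part built into its test. MT1M and MT1JP passed the filter through 2 groups each, which decides such a difference, and are left out. No reason for these differences was tested.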

How the results depend on the processing

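Counts here include MT1M, and not counting it, a choice made after seeing the data, gave 25 calls over the 5 lines in place of 26 and 5 in the mean in place of 6. The count of members called in the mean of 5 lines was 1, in place of 6, when each cell line was 1 unit. With that unit 5118 of 15542 tested genes were called, in place of 13618. No other total of member calls left the range of 1.5 times under the alternatives run. With each line fitted alone, though, 1 member was called lower in HCT-15 in place of 2. Leaving out 1 library gave 25 to 28 calls over the 5 lines and 6 to 7 in the mean. By line it gave 3 to 5 in SW480, 5 in HT-29, 7 in COLO205, 6 to 7 in HCT-15 and 4 to 5 in COLO320. Both tests between lines gave 8 of 8 each time. For MT1M, which passed the filter only through HCT-15, that difference was fixed in advance, so only the other 7 members count there. The summed level as a share of reads in genes changed by 2.19 in HCT116, 0.0802 in HT-29 and 1.15 in HCT-15. The summed RPKM without 1 library changed by 2.23 to 2.27 in HCT116, 0.15 to 0.19 in HT-29, 1.31 to 1.34 in HCT-15, 0.48 to 0.55 in SW480, −1.53 to −1.49 in COLO205 and −0.88 to −0.82 in COLO320. Same-numbered replicates did not deviate together, with 0 of 18 pairs over r = 0.1 and a range of −0.148 to 0.0492, and a replicate block gave 27 calls in place of 26, adding MT1G in HCT-15 (adjusted p = 0.0255). MT3 in HCT116, from 3 and 2 reads, reversed to −0.0048 without HCT116 DMSO replicate 1 and −0.12 without HCT116 JQ1 replicate 1, in a range of −0.12 to 0.14 over all libraries left out. MT2A in HCT116 differed by 2.09 under quantile scaling. The largest shift of the median of all genes under any scaling was to −0.0703, in HCT-15 with total reads as divisor. Of 66 tested single results, those of MT1M and MT1JP included, 47 kept their side of the threshold and direction under all alternatives. Of 11 untested ones in HCT116, 10 kept their direction. The cause of the other changes was not tested. Depth limits MT1G, MT1M, MT1H and MT1F, which rest on few reads in most lines.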
